A study of Mus musculus with 6 samples.

Results

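The NRF2 antioxidant genes are a set of 10 genes of the cell's main response to oxidants, described here in mouse mammary basal cells. They were taken by name: the transcription factor gene Nfe2l2, its inhibitor Keap1, and 8 genes that NRF2 is known to switch on. All 10 had a row with exactly 1 gene symbol on the array, among 22180 such genes, and for each gene the row with the highest mean over the 6 arrays was kept. Basal cells are the outer, contractile layer of the mammary epithelium. They were sorted by flow cytometry from glands of virgin females aged 8 to 14 weeks. The control group, 3 biological replicates, was wild type. The other group, also 3 biological replicates and called knockout here, lacked Trp53 and both products of Cdkn2a (Trp53-/-, p16ink4a-/- and p19arf-/- in the labels). Each replicate was measured on 1 array. The strain, and whether the deletions were present in all tissues, are not given in the sources used here.

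NRF2, the protein of Nfe2l2, is made continuously and is held by KEAP1, which hands it to a CUL3 ubiquitin ligase for destruction. Oxidants and electrophiles modify cysteines of KEAP1, NRF2 then accumulates, pairs with a small MAF protein and binds antioxidant response elements near genes of glutathione, thioredoxin and quinone metabolism. Much of this control acts on the protein, which an expression array does not measure. The deleted genes have known links to the pathway. p53 is known to repress Slc7a11, p19Arf to bind NRF2 and restrain it, and p21, the product of the p53 target Cdkn1a, to loosen the hold of KEAP1 on NRF2. In mammary epithelial cells Brca1 is known to support NRF2 activity. The comparison therefore bears on whether levels of these transcripts differ between the genotypes.

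Expression values are log2 values, so a difference of 1 is a doubling, and a value of 1 probe set is not compared with that of another as an amount of RNA. Medians over all rows lay between 5.22 and 5.39 on the 6 arrays. Means over 9 measured basal markers lay between 10.02 and 10.51, and means over 10 luminal markers between 7.68 and 8.72. Levels of different probe sets do not give the share of each cell type. Means of 12 macrophage markers lay between 5.14 and 5.48, close to the array medians. Signal of Cdkn2a was 6.25 ± 0.356 (SD, n = 3) in wild type and 6.32 ± 0.0703 in knockout cells. The labels do not place its probes against the deletion and Trp53 had no value here, so the genotypes rest on the labels.

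The antioxidant response element is shown here because it is the sequence that the members of this pathway are known to share. RefSeq promoter windows (build GRCm38.p6, 250 bases before to 50 after a transcript start) were matched for 7 of the 10 genes, in 9 windows. Gclc, Gsr and Hmox1 were not matched. The core TGACNNNGC or its reverse complement GCNNNGTCA lay in windows of 4 of these 7 genes, Nfe2l2, Gclm, Txnrd1 and Srxn1, and in 4 of the 9 windows. It lay in 12.4% of all 32851 windows of this length. The Srxn1 window (chr2:152105274-152105573, plus strand) and the Gclm window (chr3:122245307-122245606, plus strand) are printed whole, since the groups separated for Srxn1 and overlapped for Gclm. Capitals mark the core.
Srxn1: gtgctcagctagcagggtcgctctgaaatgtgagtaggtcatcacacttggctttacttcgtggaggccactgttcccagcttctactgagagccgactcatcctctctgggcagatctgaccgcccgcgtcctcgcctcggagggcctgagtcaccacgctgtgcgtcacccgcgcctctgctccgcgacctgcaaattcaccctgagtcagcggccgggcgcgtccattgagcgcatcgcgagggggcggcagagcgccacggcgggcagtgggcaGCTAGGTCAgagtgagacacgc
Gclm: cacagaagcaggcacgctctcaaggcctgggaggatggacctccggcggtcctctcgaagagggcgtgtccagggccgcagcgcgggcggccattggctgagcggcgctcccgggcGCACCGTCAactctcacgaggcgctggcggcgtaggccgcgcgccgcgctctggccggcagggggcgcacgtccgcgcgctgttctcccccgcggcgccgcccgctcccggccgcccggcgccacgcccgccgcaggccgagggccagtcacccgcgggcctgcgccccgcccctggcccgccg

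The match began 28 bases after the start in Srxn1 and 134 bases before it in Gclm. For Nfe2l2 (chr2:75704614-75704913, minus strand) the match began 240 bases before the start, and for Txnrd1 (chr10:82858956-82859255, plus strand, 1 of 3 windows) 92 bases before it. The short stretches around these matches follow, with the core in capitals.
Nfe2l2: cccaccTGACTCCGCcatgcc
Txnrd1: atttttGCTTTGTCAttctga

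A wider core, TGANNNNGC, which includes the first one, lay in windows of 6 of the 7 genes, all but Nqo1, and of 45% of all genes with a window. It lay in 7 of the 9 windows and in 41.3% of all windows. The Srxn1 window held one such match 45 bases before the start, shown with the wider core in capitals, whose letters TGAGTCAGC resemble the site of AP-1 as well as the element. The strict core TGACTCAGC lay in 0 of the 9 windows and in 0.454% of all windows. A match describes letters in these windows and says nothing of binding, and elements farther from the start are not covered.
Srxn1: tcacccTGAGTCAGCggccgg

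Between genotypes, 3 of the 10 genes read lower in knockout cells by between 0.43 and 0.78 on average: Gclc, Srxn1 and Gsr, of glutathione synthesis, peroxiredoxin repair and glutathione recycling. Slc7a11, the cystine importer, read higher on average, and the other 6 differed by at most 0.17 in either direction, where 1 standard error of a difference was between 0.156 and 0.272. None of the 10 passed the adjusted threshold of 0.05 in limma, in either direction, each with an adjusted p of 1.0. No gene of the array did so either (0% of 22180 genes higher and 0% lower). At an unadjusted p under 0.05, 2 members were lower, Gclc and Srxn1, and 0 were higher. Over all genes 1.71% were lower and 1.61% higher by that rule. All knockout arrays lay below all wild type arrays for 2 members, Srxn1 and Gsr, against 4.05% of all genes, and above for 0 members, against 3.63% of all genes. The median log2 difference over the 10 genes was -0.05, beside -0.00674 over all genes, with 4 members higher and 6 lower.

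Counts this small depended on single arrays. The 2 members lower at an unadjusted p under 0.05 became 1 without wild type replicate 2, wild type replicate 3 or knockout replicate 3, in each case Srxn1, and 0 without knockout replicate 2. Replicate numbers were taken as pairs from these same values, and the labels state no pairing, so p-values with the block are descriptive only. With replicate number as a block, 1 member, Slc7a11, was higher at an unadjusted p under 0.05, against 2.38% of all genes. The same 2 were lower, against 2.64% of all genes. Slc7a11 also came above all wild type arrays, and past an unadjusted p of 0.05, when knockout replicate 2 was left out. That array was its only knockout value inside the wild type range, so leaving it out separates the groups by construction. The share of all genes that separate was not counted there.

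**Figure D1:**
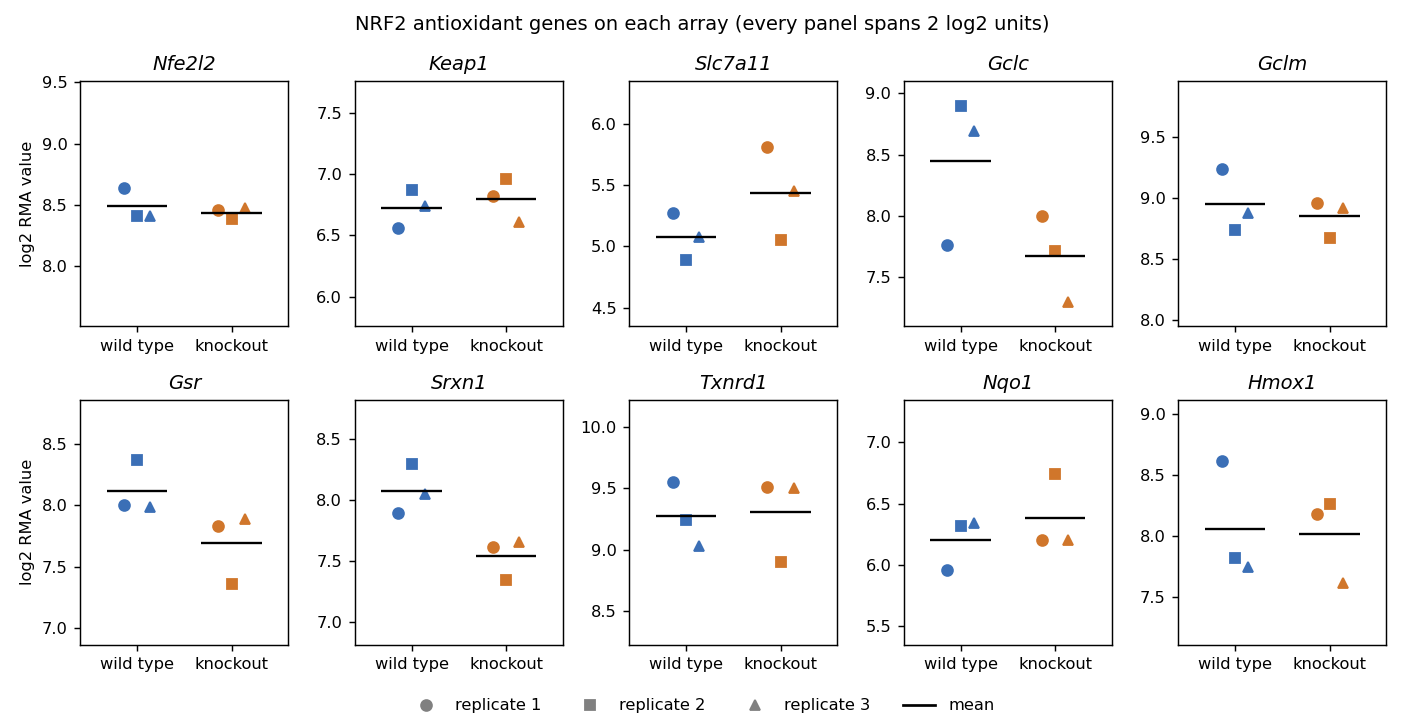
Log2 expression value of each of the 10 genes on each array (y axis, log2 RMA value; every panel spans 2 units), for 3 wild type (blue) and 3 knockout (orange) replicates, with a bar at each group mean. The groups do not overlap for Srxn1 and Gsr, wild type replicate 1 lies among the knockout arrays for Gclc, and the groups overlap for the other 7 genes.

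In the rows kept, the regulators themselves did not separate the genotypes. Nfe2l2 read 8.64, 8.41 and 8.41 in wild type and 8.46, 8.38 and 8.47 in knockout cells. These 6 values spanned 0.26, the smallest span of the 10 genes. The log2 difference was -0.05 with a standard error of 0.156, and its 95% interval in the limma fit, -0.40 to 0.30, leaves room for modest differences in either direction. Keap1 encodes the cysteine-rich sensor and adaptor. It read 6.56, 6.87 and 6.74 in wild type and 6.82, 6.96 and 6.61 in knockout cells, with groups that overlapped. The log2 difference was 0.07 with a standard error of 0.171. Keap1 had a dimmer row of its own, which read 5.95, 5.93 and 6.29 in wild type and 6.51, 6.19 and 6.43 in knockout cells. There, knockout replicates 1 and 3 lay above the wild type range and knockout replicate 2 inside it. That row gave a difference of 0.32 with a standard error of 0.171 (limma unadjusted p = 0.0943), so the size of the Keap1 difference depended on the row used. With the mean of both rows, Keap1 arrays of the knockout lay above all wild type arrays, but only barely. Wild type replicate 3 and knockout replicate 3 were then nearly equal.

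Slc7a11, the transporter subunit that brings in cystine for glutathione, read higher on average in knockout cells, with groups that overlapped. It read 5.27, 4.89 and 5.08 in wild type and 5.81, 5.05 and 5.45 in knockout cells. Knockout replicate 2 lay inside the wild type range and the other knockout replicates lay above it. Knockout cells had 1.28 times the wild type level, a log2 difference of 0.35 with a standard error of 0.205 (limma unadjusted p = 0.117, adjusted p = 1.0). The differences within replicate numbers were 0.53, 0.16 and 0.37, all upward in the knockout, and with replicate as a block the unadjusted p was 0.0462 and the adjusted p 0.991. The difference was 0.17 without knockout replicate 1 and 0.55 without knockout replicate 2. The signal is dim, close to the array medians, and a second row of the gene, at 3.97 ± 0.0276 (SD, n = 3) and 4.0 ± 0.175, differed by 0.03. Slc3a2, the heavy chain that carries Slc7a11 to the membrane, read 10.42, 10.86 and 9.91 in wild type and 10.27, 10.68 and 10.12 in knockout cells, a difference of -0.04 with a standard error of 0.246.

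The subunits of glutamate-cysteine ligase, the enzyme that makes the rate-limiting step of glutathione synthesis, showed unlike values. Gclc, the catalytic subunit, read 7.76, 8.90 and 8.69 in wild type and 8.00, 7.71 and 7.30 in knockout cells. Wild type replicate 1 was among the knockout values, and the other wild type arrays lay above every knockout array. Wild type cells had on average 1.72 times the knockout level, a log2 difference of -0.78 with a standard error of 0.31 (limma unadjusted p = 0.0325, adjusted p = 1.0). Gclc also had the widest span over the 6 arrays, 1.61, and the wild type SD, 0.61, was nearly as large as the difference. Arrays of the same replicate number differed by 0.24, -1.20 and -1.40. Leaving out 1 array gave differences between -1.13 and -0.56, with an unadjusted p under 0.05 in 2 of 6 cases, without wild type replicate 1 or knockout replicate 1. Gclm, the modifier subunit that raises the activity of Gclc, read 9.24, 8.74 and 8.88 in wild type and 8.96, 8.67 and 8.92 in knockout cells. These groups overlapped, with a difference of -0.10 and a standard error of 0.184.

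Srxn1 showed the clearest separation of the groups among the 10 genes. It encodes sulfiredoxin, which restores peroxiredoxins that peroxide has over-oxidized. Srxn1 read 7.89, 8.29 and 8.05 in wild type and 7.62, 7.35 and 7.66 in knockout cells. Every knockout array lay below every wild type array, with a gap of 0.23 between the closest ones. Knockout cells had 69.1% of the wild type level, a log2 difference of -0.53 with a standard error of 0.181 (limma unadjusted p = 0.0163, adjusted p = 1.0). Arrays of the same replicate number differed by -0.26, -0.94 and -0.39. Leaving out 1 array gave differences between -0.63 and -0.43, and the unadjusted p rose above 0.05, to 0.0597, without knockout replicate 2. An exact two-sided permutation test of 3 arrays against 3 gave 0.1, the smallest p this design allows.

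Gsr, glutathione reductase, which returns oxidized glutathione to its reduced form with NADPH, read 8.00, 8.37 and 7.99 in wild type and 7.83, 7.36 and 7.89 in knockout cells. The groups did not overlap, but the highest knockout array and the lowest wild type array were only 0.11 apart. Knockout cells had 74.4% of the wild type level, a log2 difference of -0.43 with a standard error of 0.205 (limma unadjusted p = 0.0676, adjusted p = 1.0). Knockout replicate 2 was the lowest array for Srxn1 and for Gsr, and without it the Gsr difference was -0.26. Txnrd1, the cytosolic thioredoxin reductase, had no such separation. It read 9.55, 9.24 and 9.03 in wild type and 9.51, 8.90 and 9.50 in knockout cells, a difference of 0.03 with a standard error of 0.218.

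Nqo1 and Hmox1, commonly used as readouts of NRF2 activity, did not separate the genotypes. Nqo1, which reduces quinones, read 5.96, 6.32 and 6.34 in wild type and 6.20, 6.74 and 6.20 in knockout cells, a difference of 0.17 with a standard error of 0.202. Knockout replicate 2 was its highest array, and without that array the difference was -0.0057. Hmox1, haem oxygenase 1, also induced by haem and by other stresses, read 8.61, 7.82 and 7.75 in wild type and 8.18, 8.26 and 7.62 in knockout cells. Wild type replicate 1 was the highest and knockout replicate 3 the lowest, so the ends of the range lay in different genotypes. The difference was -0.04 with a standard error of 0.272, the largest standard error of the 10 genes apart from that of Gclc. With wild type replicate 1 left out it was 0.23, and with knockout replicate 3 left out 0.16, both of the opposite sign. With array weights it was 0.13. Macrophages are known for high Hmox1. The array means of 12 macrophage markers were 5.35, 5.19 and 5.14 in wild type and 5.33, 5.21 and 5.48 in knockout cells. Of these markers 8 read higher and 4 lower on average in the knockout, 0 at an unadjusted p under 0.05. For 2 of them every knockout array lay above every wild type array, against 3.63% of all genes. For 0 did every knockout array lie below, against 4.05%. The part of macrophages in the Hmox1 values was not tested.

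**Figure D2:**
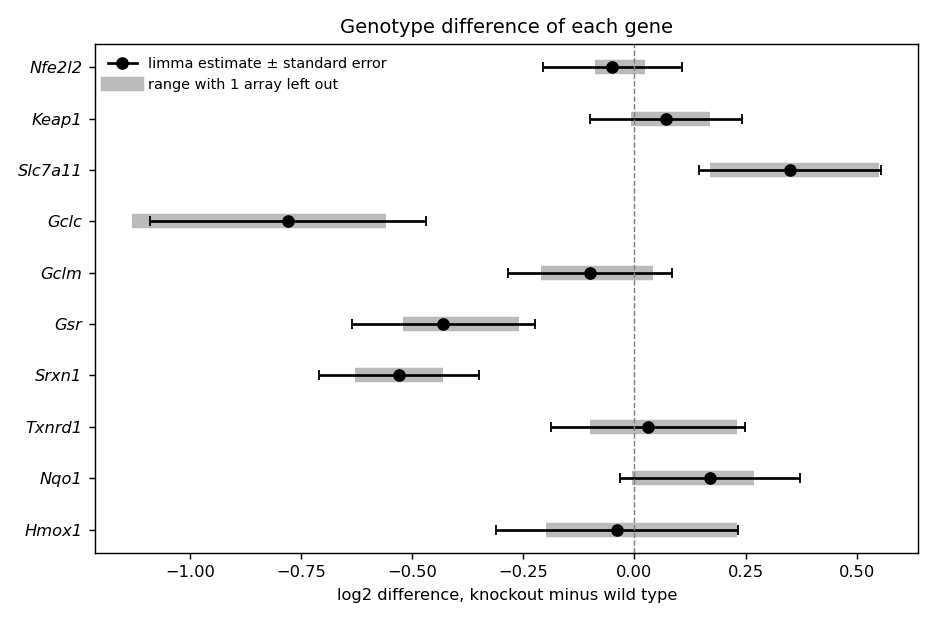
Log2 difference of each gene, knockout minus wild type (x axis), as the limma estimate with its standard error (point and bar), and the range of estimates when 1 of the 6 arrays is left out (grey). Gclc, Gsr and Srxn1 stay below 0 and Slc7a11 above 0 whichever array is left out, and the ranges of the other 6 genes include 0.

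The 10 genes did not vary over the arrays as a single block. Nfe2l2, Gclm, Txnrd1 and Hmox1 were all highest on wild type replicate 1. Gclc, Srxn1 and Gsr were highest on wild type replicate 2. Knockout replicate 2 held the lowest value of 5 genes, Nfe2l2, Gclm, Txnrd1, Srxn1 and Gsr, and the highest of Keap1 and Nqo1. Its median deviation from the means of the 10 genes was -0.22, where that of the other arrays lay between -0.06 and 0.08. The same array had the highest mean of 14 immediate early and dissociation stress genes, 11.0, where the wild type arrays had 10.12, 10.52 and 9.63 and the other knockout arrays 10.45 and 9.92. All 14 of these stress genes read higher on average in the knockout, 0 of them at an unadjusted p under 0.05. With replicate as a block 6 of the 14 were higher by that rule, against 2.38% of all genes, and 0 passed the adjusted threshold. The smallest unadjusted p with the block, whose pairing came from these same values, was that of the immediate early gene Nr4a1, 0.000504. Its adjusted p was 0.532, and without the block its unadjusted p in limma was 0.133. Within replicate numbers 1, 2 and 3, Nr4a1 was higher in the knockout array by 0.59, 0.85 and 0.63 on the log2 scale. The part of handling stress in the values of Srxn1 and Gsr was not tested.

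The mean of the luminal markers moved with Gclc in part. Of 10 measured luminal markers 9 read lower on average in knockout cells, and 1, Elf5, read higher. At an unadjusted p under 0.05, 1 was lower, against 1.71% of all genes, and its groups did not overlap. With replicate as a block 3 were lower by that rule, against 2.64% of all genes, and 0 passed the adjusted threshold. The means of the 10 per array were 7.68, 8.72 and 8.43 in wild type and 8.00, 8.06 and 7.69 in knockout cells. The dimmest markers of the list, Elf5 and Pgr, read between 4.61 and 5.28 and between 4.36 and 6.05, and Krt8 between 11.01 and 11.86. Wild type replicates 2 and 3, the arrays of highest luminal mean, were also those of highest Gclc, Srxn1 and, for replicate 2, Gsr. Among knockout arrays, replicate 2 had the highest luminal mean, 8.06, and its Gclc value, 7.71, was below that of replicate 1, 8.00. In bulk samples, fewer cells of a type and less RNA per cell cannot be told apart. When the luminal mean was added to the fit as a covariate, an alternative chosen after seeing the data, the Gclc difference was -0.37 with a standard error of 0.188 (limma unadjusted p = 0.0869). For Srxn1 it was -0.45 (unadjusted p = 0.0454) and for Gsr -0.38 (unadjusted p = 0.134), and all 3 had an adjusted p of 0.999. The same covariate enlarged some other differences, with Gclm going from -0.10 to -0.27 and Nqo1 from 0.17 to 0.34. That of Slc7a11 went from 0.35 to 0.23. The covariate itself was lower in the knockout on average and so holds part of the genotype difference. The part of luminal cells in the values of these genes was not tested.

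Most markers of stromal cells read higher on average in the knockout. All 7 measured fibroblast markers did so, with a median log2 difference of 0.14. Of them 3, Lum, Pdgfra and Dcn, had an unadjusted p under 0.05, where 1.61% of all genes were higher by that rule. The rest of the fibroblast markers differed by between 0.06 and 0.14. The array means of the 7 were 6.96, 6.86 and 6.60 in wild type and 7.29, 7.16 and 7.30 in knockout cells, with no overlap of the genotypes. Lum, a collagen-binding proteoglycan, read 4.23, 4.17 and 3.98 in wild type and 5.43, 4.72 and 6.09 in knockout cells, a difference of 1.28 with a standard error of 0.294 (limma unadjusted p = 0.00181, adjusted p = 1.0). Every knockout array lay above every wild type array for Lum, while Dcn and Pdgfra, at 0.54 and 0.85, had groups that overlapped. Of 6 adipocyte markers 5 read higher, 1 of them at an unadjusted p under 0.05. That gene, Fabp4, a fatty acid carrier of fat and capillary cells, read 8.22, 8.15 and 8.04 in wild type and 9.21, 9.72 and 9.40 in knockout cells. The groups did not overlap, and the difference was 1.31 (SE 0.179, adjusted p = 0.818 in limma). The rest of the adipocyte markers differed by between -0.05 and 0.14. Of 6 endothelial markers 4 read higher, 0 at an unadjusted p under 0.05. The part of these cells in the values of the 10 genes was not tested.

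**Figure D3:**
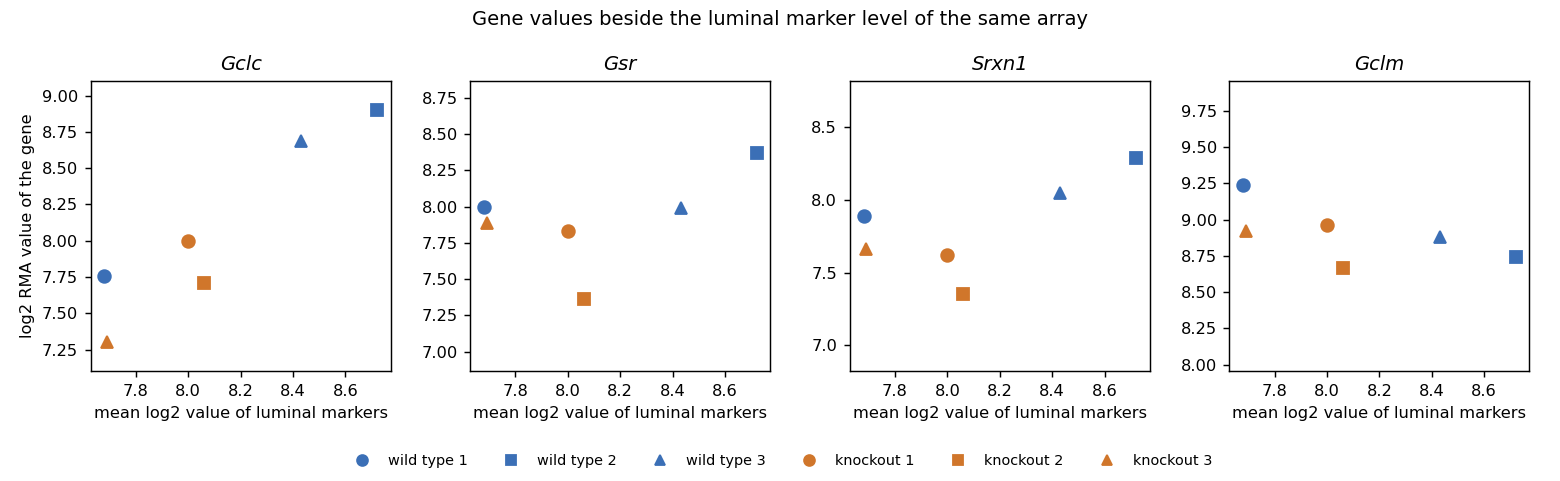
Log2 value of Gclc, Gsr, Srxn1 and Gclm (y axis; every panel spans 2 units) against the mean log2 value of 10 luminal markers on the same array (x axis), for 3 wild type (blue) and 3 knockout (orange) arrays. Gclc is highest on the arrays with luminal means of 8.43 and 8.72, Srxn1 is lower on every knockout array than on wild type replicate 1, whose luminal mean of 7.68 is the lowest, and Gclm is highest on that array.

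Further genes of the pathway were read in 10 lists drawn up by known function. Of 14 measured protein partners and relatives of NRF2, 10 read higher and 4 lower on average, with a median log2 difference of 0.07, and 0 had an unadjusted p under 0.05. That median was -0.03 without wild type replicate 3. Bach1, the repressor that competes with NRF2 for its elements, read 9.17, 9.11 and 8.94 in wild type and 8.94, 8.89 and 8.93 in knockout cells. The lowest wild type and the highest knockout array were nearly equal, and the difference was -0.15 with a standard error of 0.149. Sqstm1, the autophagy receptor p62 that can displace NRF2 from KEAP1, differed by 0.09 with a standard error of 0.195. Bach2, a relative of Bach1, differed by 0.33, the kinase gene Gsk3b by 0.21 and Nfe2, a relative of Nfe2l2, by 0.17.

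Another 33 known NRF2 targets were measured in 5 lists, of which 15 read higher and 18 lower on average, with a median of -0.04. Of these, 0 passed the adjusted threshold. At an unadjusted p under 0.05, 1 was higher and 2 were lower, against 1.61% and 1.71% of all genes. Groups did not overlap for 3 genes higher in the knockout and for 0 lower, against 3.63% and 4.05% of all genes. With replicate as a block, 2 of the 33 were higher and 4 lower at an unadjusted p under 0.05, against 2.38% and 2.64% of all genes. The added ones were Cbr3, Taldo1 and Akr1b8, and 0 passed the adjusted threshold. The 2 genes lower without the block belong to glutathione use. Gsta4, a glutathione transferase for lipid aldehydes, read 8.20, 9.75 and 9.36 in wild type and 7.95, 8.60 and 8.00 in knockout cells, a difference of -0.92 with a standard error of 0.371. Abcc3, an exporter of conjugates, read 6.67, 7.86 and 7.80 in wild type and 6.68, 6.77 and 6.48 in knockout cells, a difference of -0.80 with a standard error of 0.304. For Gsta4 and Abcc3, as for Gclc, the first wild type replicate fell among the knockout values and the other two were above them. With the luminal mean as a covariate their differences were -0.40 and -0.38, while those of some other targets grew. The gene higher at an unadjusted p under 0.05, Gpx2, was very dim, at 2.66 to 3.11 in wild type and 3.32 to 3.51 in knockout cells.

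Genes of NADPH supply and the pentose phosphate pathway were read next, since Gsr and Txnrd1 use NADPH as reductant. All 4 measured, Taldo1, Idh1, Pgd and Me1, read lower on average, with a median log2 difference of -0.43, and 0 of them had an unadjusted p under 0.05. G6pdx and Tkt, also in this list of 6, had no value here. Taldo1, transaldolase of the non-oxidative branch of that pathway, read 7.57, 9.11 and 8.58 in wild type and 7.50, 8.38 and 7.84 in knockout cells. Its difference was -0.51 with a standard error of 0.378, and -0.03 with the luminal mean as a covariate. Idh1 differed by -0.46 and Pgd by -0.40, and the median of the 4 genes was -0.16 with that covariate and -0.23 without wild type replicate 2. Me1 differed by -0.25, and by -0.34 with the covariate. Of the 4 measured haem and iron genes 2 read higher and 2 lower. Fth1, the ferritin heavy chain, read 12.17 to 12.28 in wild type and 12.29 to 12.33 in knockout cells, a difference of 0.08 with a standard error of 0.0912. Of 9 detoxification and other targets 7 read higher and 2 lower, with the carbonyl reductase Cbr3 at 0.42, the aldo-keto reductase Akr1b8 at -0.45 and catalase, Cat, at 0.12. Txn1, the only thioredoxin target measured, differed by -0.06.

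Of 13 antioxidant enzymes outside these lists, 3 read higher and 10 lower, with a median of -0.05 and 0 at an unadjusted p under 0.05. Prdx3, the mitochondrial peroxiredoxin, had the largest difference among them, -0.55 with a standard error of 0.331, on arrays that read 6.0, 7.34 and 7.16 in wild type and 6.21, 6.58 and 6.05 in knockout cells. Of 8 measured p53 targets with a redox role, 7 read higher and 1 lower. Their median was 0.13, with 0 at an unadjusted p under 0.05. It turned to -0.02 when wild type replicate 3 was left out and to -0.0025 when knockout replicate 2 was, and it reached 0.22 with wild type replicate 2 omitted and 0.23 with knockout replicate 3 omitted. Sesn1, a sestrin, differed by 0.47 with a standard error of 0.216, and Cdkn1a by 0.06 with a standard error of 0.144. The ATF4 list, whose genes share control by amino acid stress with Slc7a11, had 4 of 10 members higher, 6 lower and a median of -0.13. Atf4 differed by 0.10 and Ddit3 by 0.73, with standard errors of 0.0954 and 0.345, while Asns, asparagine synthetase, lay below all wild type arrays on every knockout array and differed by -0.28. Of 7 cystine and lipid peroxidation genes 2 read higher and 5 lower, with a median of -0.07. Lpcat3, which puts polyunsaturated fatty acids into phospholipids, was among the lower ones at -0.38 with a standard error of 0.179 (limma unadjusted p = 0.0598, adjusted p = 1.0). Its groups did not overlap. With replicate as a block Sesn1 and Ddit3 were higher and Lpcat3 lower at an unadjusted p under 0.05, with p of 0.0457, 0.0117 and 0.0404.

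**Figure D4:**
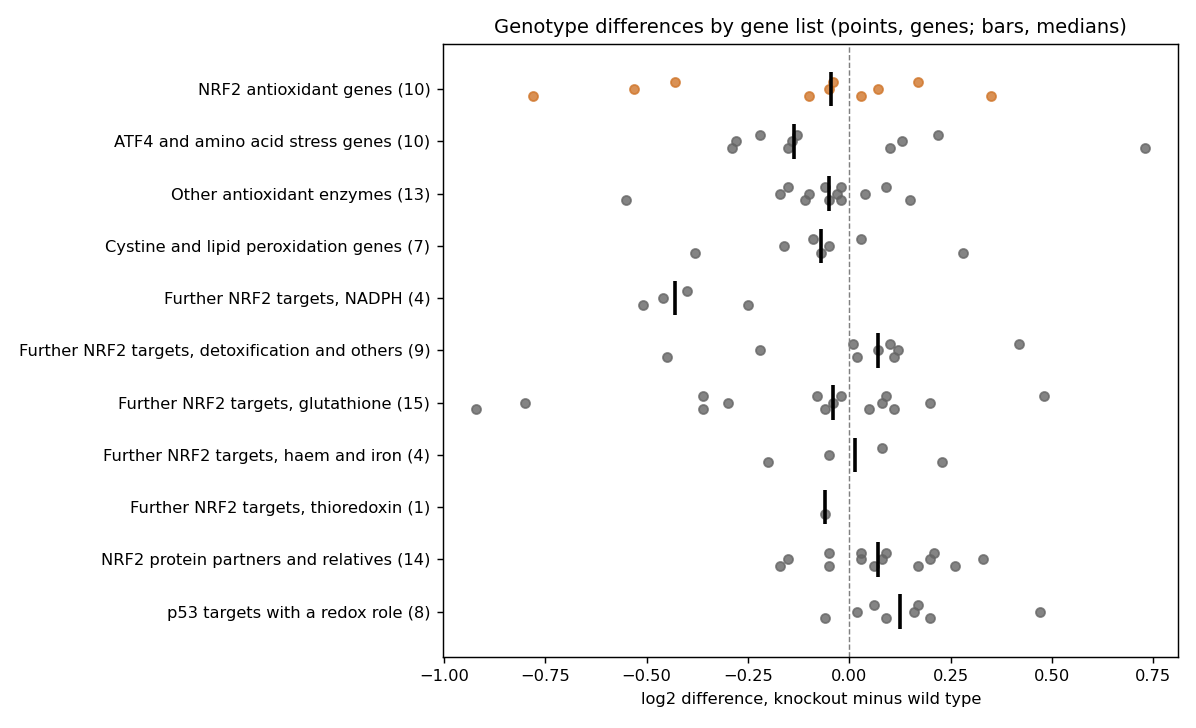
Log2 difference, knockout minus wild type (x axis), of every measured gene in the NRF2 set (orange) and in 10 further lists (grey), with a bar at each list's median and the number of measured genes in brackets. Medians lie between -0.43 for the NADPH genes and 0.13 for p53 targets with a redox role, and single genes of the lists lie between -0.92 and 0.73.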

How the data were processed

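RNA of sorted basal cells was amplified, labelled with biotin and hybridized to whole-transcript arrays, per the labels' protocols. Values were deposited on the log2 scale, 1 per probe set, made by the authors with RMA (background correction, normalization between arrays, summary over probes), and Transcriptome Analysis Console 4.0 was used, per the submitters' processing notes. No genome build is given in the sources used here. Of 41345 rows, 23521 had 1 gene symbol in the platform annotation, 1814 had several and 16010 were unnamed here. The row of highest mean was kept per gene. No array repeated another, and array pairs correlated at 0.971 to 0.988 across genes. An array has no read depth, and 3 arrays per genotype limit the precision.

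The genotype difference was fitted in limma 3.58.1 (R 4.3.3; lmFit and eBayes, trended prior), with two-sided tests, Benjamini-Hochberg adjustment over all 22180 genes and a threshold of 0.05. The fit was tested on simulated arrays. There, 2.2% of added log2 differences of 0.5 and 48.4% of those of 1 passed the adjusted threshold, so most differences of the size read here would be missed. The members and lists were chosen with earlier results of these data known. All 10 members are named. Of each list the 3 genes of smallest p could be named, not all of which are, and so could Slc3a2, Bach1, Sqstm1, Cdkn1a, Cat and Atf4. Me1, Elf5, Pgr, Krt8, Lum, Pdgfra, Dcn, Fabp4 and Nr4a1 were named after their values were seen.

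Same-numbered wild type and knockout arrays deviated from their group means together, with r of 0.121, 0.25 and 0.127 across genes, each over 0.1. They were taken as pairs on this basis alone, since the labels are silent on it. Wild type replicate 1 correlated as much, at 0.13, with knockout replicate 3. The unblocked fit stayed the main one. Settings tried beside this fit were an untrended or robust prior, weighted arrays, quantile normalization, median centring, a minimum mean of 5 on the log2 scale, other rows of a gene, a replicate block, a luminal covariate and the omission of each array. Figures were drawn with matplotlib 3.10.9.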

Additional observations from a re-analysis of the deposited data

How the results depend on the processing

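Under all 16 other settings, 0 of the 10 genes and 0 genes of the array passed an adjusted p of 0.05 in limma. The smallest adjusted p of a member was 0.232, without wild type replicate 1, and the largest 1.0. Gclc, Srxn1 and Gsr kept a negative and Slc7a11 a positive difference under all of them. Over all genes, those higher at an unadjusted p under 0.05 numbered 926 with array weights and 261 to 731 with 1 array left out, and those lower numbered 1044 with array weights, 206 with dim genes left out, 585 with the replicate block and 262 to 1057 with 1 array left out. Among the 10 genes, the count higher by that rule was 1 with array weights or the replicate block, and 0 to 1 with 1 array left out. The count lower by it was 1 with the luminal covariate and 0 to 2 with 1 array left out. The replicate block changed no other call among the 10 genes. The count above all wild type arrays was 1 with the mean of all rows and 0 to 1 with 1 array left out. With replicate 1 of either genotype omitted, 3 members, Gclc, Gsr and Srxn1, lay below all wild type arrays, and otherwise 2 did. How many of all genes separate with rows averaged or an array omitted was not counted, so these counts have no background to be set against. The median of the 10 genes was -0.19 with the luminal covariate, and between -0.13 and 0.03 with 1 array left out. List medians with 1 array left out ranged from -0.19 to -0.0011 for the ATF4 genes, from -0.22 to -0.01 for the glutathione targets, from -0.11 to 0.11 for the haem and iron genes, from -0.03 to 0.19 for the partners, from -0.02 to 0.23 for the p53 targets, from -0.13 to 0.01 for the other antioxidant enzymes, from -0.11 to 0.02 for Txn1 and from -0.63 to -0.23 for the NADPH list. The cystine and lipid peroxidation median was 0.02 with array weights and -0.17 with the luminal covariate, which moved the haem and iron median to 0.13. Signs turned with 1 array left out for Nfe2l2 (-0.0889 to 0.0248), Keap1 (-0.0085 to 0.17), Nqo1 (-0.0057 to 0.27), Hmox1 (-0.20 to 0.23), Gclm (-0.21 to 0.0407) and Txnrd1 (-0.10 to 0.23), for Hmox1 with array weights (0.13) and for Txnrd1 with the luminal covariate (-0.14). The strict core TGACTCAGC lay in windows of 0 members. The causes were not tested, apart from fewer genes or arrays where these were left out. Each biological replicate is 1 array. The limma p-values set a difference against the spread between arrays, drawn toward that of other genes, with 3 arrays per genotype or fewer where 1 was left out.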
